A study of Mus musculus with 9 samples.

Results

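Skeletal muscle genes were followed through 3 cell populations sorted from the developing mouse knee. The set held 41 genes of 54532 in the deposited table: muscle progenitor and myoblast factors, sarcomere proteins, acetylcholine receptor subunits of the muscle membrane and genes of energy and calcium handling. Members were chosen by symbol, with earlier results of these data known, and each was matched to its Ensembl identifier in GENCODE M21 (build GRCm38). All 41 had at least 1 read. Shares over all genes, given below beside the members' counts, are therefore a description and not a test. The embryos were at stage E14.5 and every sample came from the same genotype, Creb5 3XHA-P2A-tdTomato/+; Sox9 iresEGFP/+, in which red fluorescence (RFP) reports Creb5, a bZIP transcription factor, and green fluorescence (GFP) reports Sox9, the transcription factor of chondrocytes. Knees were digested with collagenase, filtered and sorted into double-positive, GFP-only and RFP-only cells, about 250000 to 500000 cells per sample, with no muscle marker in the sort. Each population was sampled from 3 litters, numbered 1, 2 and 5, which gave 9 bulk libraries. Each litter has its own isolation date, so litter and date cannot be told apart. Libraries are named below by population and litter, and the 3 values given for a population are those of litters 1, 2 and 5 in that order.

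Limb muscle is not made by the limb's own mesenchyme. Progenitors that express Pax3 and Lbx1 migrate from the somites into the limb bud, switch on the myogenic regulatory factors (basic helix-loop-helix proteins that bind E-box DNA motifs), leave the cell cycle and fuse into multinucleate fibers. Fibers then assemble sarcomeres, in which myosin thick filaments slide along actin thin filaments under the control of troponin, and gather acetylcholine receptors on the membrane where motor nerves arrive.

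Each library held between 25199258 and 47079305 reads. Creb5 had a mean of 203 normalized counts in GFP-only, 3044 in double-positive and 2959.8 in RFP-only cells, and Sox9 had 28910.0, 23473 and 1618, in the order of the sort labels. Because the tissue was labelled only as knee, the members themselves are the check on muscle, and all 3 populations held reads from most of them: 3 members in GFP-only cells (Myh7, Ckm and Cacna1s), 1 in double-positive cells (Cacna1s) and 0 in RFP-only cells were at 0 in every library of the population.

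Summed muscle RNA was highest in RFP-only cells. Together the 41 members had 2956, 3687 and 6715 normalized counts in GFP-only cells, 2692, 5517 and 5827 in double-positive cells and 14442, 48113 and 41616 in RFP-only cells. As CPM, counts scaled to the library's total, this was 78.3 to 135 in GFP-only, 80.1 to 166 in double-positive and 435 to 1369 in RFP-only cells. All 3 RFP-only libraries lay above the other 6, and the GFP-only and double-positive ranges overlapped. The troponin gene Tnni1 alone supplied 1465, 1229 and 2315 of the GFP-only counts, but 191, 256 and 320.0 of the double-positive counts. The GFP-only and double-positive sums therefore do not stand for most members alike. In bulk RNA, fewer muscle cells and less muscle RNA per cell cannot be told apart.

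Gene by gene, 24 of the 37 members tested were higher in RFP-only cells than in GFP-only cells, 0 were lower and 13 did not pass (limma on log2(normalized count + 1), adjusted p under 0.05 over all genes tested). Over all 17764 genes tested in that comparison, 20.3% passed, 11.8% in the higher and 8.48% in the lower direction. All 24 differences had 1 sign in all 3 litters, which is no separate support, since they were called on the same libraries. Differences are given throughout as log2 fold changes ± SE, first-named population minus the second, and a call lost or gained without a library means with that library left out of the fit. Testing required a mean of at least 10 normalized counts over the 9 libraries; 39 members reached that mean within RFP-only cells, 33 within double-positive cells and 31 within GFP-only cells, so some members entered the test only through the population where they are high. The 4 members below that mean were Myf6, Myh7, Ckm and Cacna1s. With no such filter, over 30576 genes, Myf6 (adjusted p = 0.0278) and Cacna1s (adjusted p = 0.00155) passed as higher in RFP-only cells than in GFP-only cells, Cacna1s also as lower in double-positive cells than in RFP-only cells (adjusted p = 0.00712; limma), and Myh7 and Ckm passed in no comparison. Exons of 11 members overlap a gene annotated on the opposite strand, among them Mybpc1, Mybph, Neb, Des and Ttn, and the counting is of unknown strand setting, so that overlapping reads cannot be assigned to 1 of the 2 genes. Between double-positive and GFP-only cells 3 members were higher (Des, Mybpc1 and Chrnb1), 1 was lower (Tnni1) and 33 did not pass, where 8.29% of all genes passed, 5.27% higher and 3.02% lower. Against RFP-only cells 0 members were higher in double-positive cells, 13 were lower and 24 did not pass, where 2.85% of all genes passed, 1.8% higher and 1.05% lower.

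**Figure D1:**
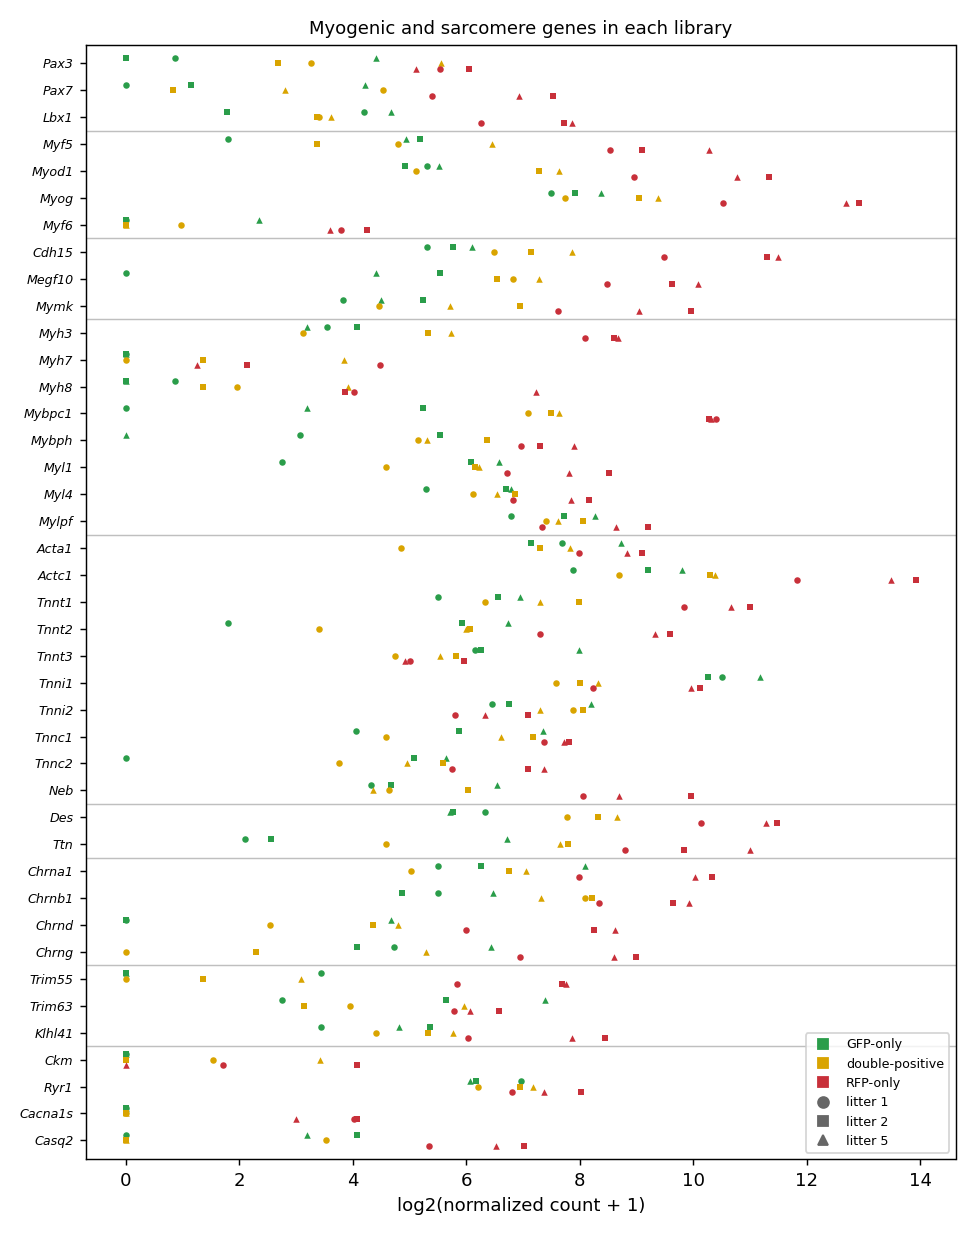
Level of each of the 41 members, 1 row per gene and grouped by role, with 1 point per library on a log2(normalized count + 1) axis; colour gives the population and shape the litter. The red RFP-only points lie furthest right in most rows, the green GFP-only points lie furthest right for Tnni1, and Cacna1s, Ckm and Myh7 have at most 21.3 normalized counts in any library.

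**Figure D2:**
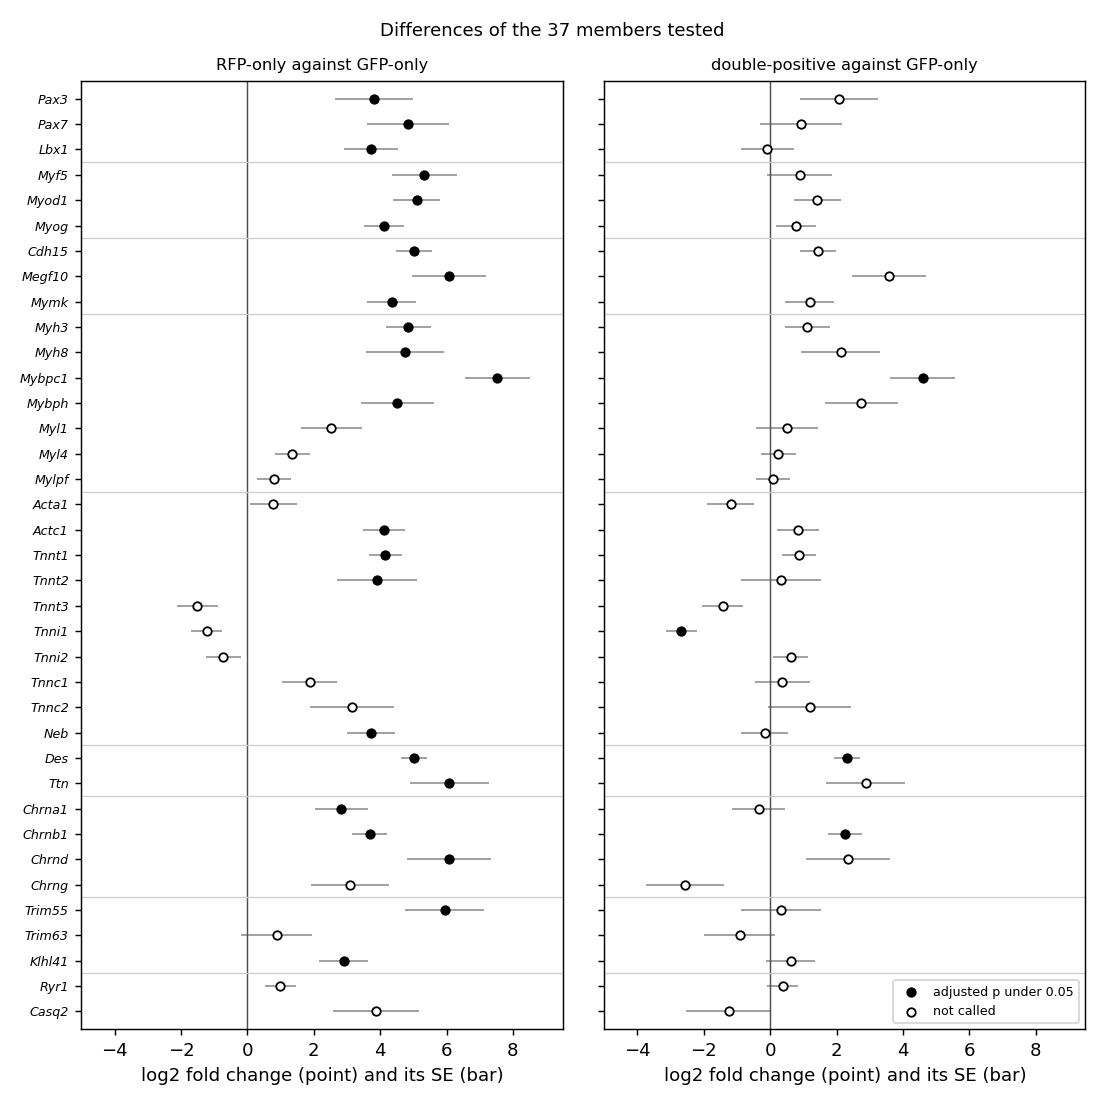
Log2 fold change of each tested member with its standard error, for RFP-only versus GFP-only (left) and double-positive versus GFP-only cells (right), with filled points for adjusted p under 0.05. All 24 filled points of RFP-only versus GFP-only cells lie above 0, and for double-positive versus GFP-only cells 3 filled points lie above and 1 below.

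Members were also read at their promoters, since the myogenic regulatory factors bind E-boxes. RefSeq promoter windows of 300 bases (250 before to 50 after the start, GRCm38.p6) matched 30 of the 41 members with 33 windows, and were compared with all 32851 windows of that table, on both strands. The general E-box CANNTG was in 87.9% of member windows and 72.3% of all windows. Its form CAGCTG was in 45.5% of member windows and 16.3% of all, and its form CACCTG in 33.3% and 20.2%, and both forms are also counted under the general E-box. The MEF2 site, bound by the MEF2 partners of the myogenic factors, was in 12.1% of member windows against 3.19%, and the CArG box, bound by serum response factor, in 6.06% against 1.63%. These are matches of letters, given as shares with no test, and show nothing of binding in these cells.

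The stretches below are the 150 bases upstream of a member's RefSeq start that carry such matches. For Tnni1 and Mylpf this start lies inside the span of the annotated gene, downstream of its first annotated base, and 19 bases of the Tnni1 stretch lie in annotated exons. They are shown for genes whose RNA followed different patterns in the sort: Des at chr1:75360142-75360291 (plus strand), Mybph at chr1:134193298-134193447 (plus strand), Klhl41 at chr2:69669970-69670119 (plus strand) and Chrna1 at chr2:73580339-73580488 (minus strand) were higher in RFP-only cells, Tnni1 at chr1:135799271-135799420 (plus strand) was lower in double-positive cells than in GFP-only cells, and Mylpf at chr7:127211458-127211607 (plus strand) and Acta1 at chr8:123894776-123894925 (minus strand) passed in no comparison. Each reads 5′ to 3′ on the gene's strand, with capitals for CAGCTG, for CACCTG read on either strand, the MEF2 site and the CArG box.
Des: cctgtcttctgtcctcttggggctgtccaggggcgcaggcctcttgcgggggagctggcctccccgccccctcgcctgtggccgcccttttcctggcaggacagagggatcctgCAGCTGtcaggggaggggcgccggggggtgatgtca
Mybph: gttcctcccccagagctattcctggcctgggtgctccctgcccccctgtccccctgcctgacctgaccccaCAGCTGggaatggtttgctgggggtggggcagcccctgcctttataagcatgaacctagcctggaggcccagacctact
Klhl41: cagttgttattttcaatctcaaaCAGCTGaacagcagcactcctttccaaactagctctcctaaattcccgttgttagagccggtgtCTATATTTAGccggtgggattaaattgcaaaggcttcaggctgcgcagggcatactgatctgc
Chrna1: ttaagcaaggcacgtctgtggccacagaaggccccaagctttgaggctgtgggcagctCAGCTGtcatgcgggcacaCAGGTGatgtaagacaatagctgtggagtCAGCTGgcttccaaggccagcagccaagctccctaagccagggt
Tnni1: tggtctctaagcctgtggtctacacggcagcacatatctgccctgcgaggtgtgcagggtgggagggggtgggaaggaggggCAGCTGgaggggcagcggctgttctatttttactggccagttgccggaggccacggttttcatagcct
Mylpf: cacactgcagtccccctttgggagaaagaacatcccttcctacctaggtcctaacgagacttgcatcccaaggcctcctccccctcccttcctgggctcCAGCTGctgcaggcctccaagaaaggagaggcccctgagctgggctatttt
Acta1: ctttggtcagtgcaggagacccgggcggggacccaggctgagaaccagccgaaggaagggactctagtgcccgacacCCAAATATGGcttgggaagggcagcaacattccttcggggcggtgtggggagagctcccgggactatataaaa
The Des stretch holds 1 CAGCTG, whose first base lies 36 bases before the start, and Mybph holds 1 at 79 bases, Tnni1 1 at 68 bases and Mylpf 1 at 51 bases before it. Chrna1 holds 3 marked E-boxes, Klhl41 a CAGCTG and a MEF2 site, and Acta1 a CArG box that starts 73 bases before the start. The CAGCTG form occurs both in members that were higher in RFP-only cells and in Tnni1 and Mylpf, which were not called higher there. The printed stretches are a selection and do not stand for their groups. Of the members called higher there, Mybpc1 and Tnnt2 also held CAGCTG in a window. Pax7, Myf5, Myog, Cdh15, Myh3, Myh8, Actc1, Tnnt1, Ttn and Chrnb1 held none. Windows of Myl1, Chrng, Trim63 and Acta1, tested but not called higher, held it, as did those of the untested Cacna1s and Ckm.

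Among the transcription factors of muscle progenitors, all 3 were higher in RFP-only cells than in GFP-only cells, and 1 was lower in double-positive cells than in RFP-only cells. Lbx1 (ENSMUSG00000025216, minus strand of chromosome 19, 45232684 to 45235812), a homeobox factor of progenitors that migrate into the limb, led the group. Lbx1 had 17.4, 2.45 and 24.4 normalized counts in GFP-only cells, 9.61, 9.36 and 11.2 in double-positive cells and 75.4, 209.5 and 232 in RFP-only cells. RFP-only values lay above all others, without overlap, and the other populations did not separate. The log2 fold change was 3.73 ± 0.80 (adjusted p = 0.00753) for RFP-only versus GFP-only, -3.82 ± 0.80 (adjusted p = 0.0301) for double-positive versus RFP-only and -0.09 ± 0.80 (adjusted p = 0.961) for double-positive versus GFP-only cells (limma). The call against RFP-only cells was lost with no filter and without double-positive 1, double-positive 2, double-positive 5, RFP-only 2 or RFP-only 5.

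Pax7, the paired-box factor of fetal progenitors and later of satellite cells, was also highest in RFP-only cells. Pax7 had 0, 1.22 and 17.6 normalized counts in GFP-only cells, 22.1, 0.780 and 5.98 in double-positive cells and 41.1, 185 and 122 in RFP-only cells. Its RFP-only libraries were all above the 6 others, with a difference of 4.83 ± 1.24 (adjusted p = 0.0186) from GFP-only cells and of -3.90 ± 1.24 (adjusted p = 0.146) between double-positive and RFP-only cells (limma). The first did not pass without GFP-only 1, RFP-only 2 or RFP-only 5, nor by edgeR (adjusted p 0.0504 to 0.0765 over these limma fits and edgeR). Pax3, the paired-box factor of the earliest limb progenitors, had 7.06 ± 11.5, 20.2 ± 22.7 and 48.3 ± 16.2 normalized counts in GFP-only, double-positive and RFP-only cells (SD, n = 3). Its difference between RFP-only and GFP-only cells (3.81 ± 1.17, adjusted p = 0.0412) did not pass without GFP-only 1, GFP-only 2, double-positive 1, RFP-only 1, RFP-only 2 or RFP-only 5 (adjusted p 0.0547 to 0.161 over these limma fits and 5 other alternatives, edgeR and DESeq2 among them).

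The myogenic regulatory factors, which commit cells to muscle and drive differentiation, were higher in RFP-only cells as a group: 3 of 3 tested members against GFP-only cells and 3 of 3 against double-positive cells. Myod1 (ENSMUSG00000009471, plus strand of chromosome 7, 46376474 to 46379099), the determination factor, was highest in RFP-only cells. Myod1 had 38.9, 29.4 and 44.8 normalized counts in GFP-only cells, 33.6, 154 and 198 in double-positive cells and 494, 2592 and 1744 in RFP-only cells. RFP-only values lay above all 6 others, and double-positive libraries 2 and 5, but not 1, lay above the GFP-only range. Myod1 differed by 5.10 ± 0.71 (adjusted p = 0.000612) between RFP-only and GFP-only cells and by -3.68 ± 0.71 (adjusted p = 0.0198) between double-positive and RFP-only cells, while double-positive versus GFP-only cells did not pass (1.42 ± 0.71, adjusted p = 0.242; limma). It passed there by DESeq2, and the call against RFP-only cells was lost without double-positive 1, RFP-only 2 or RFP-only 5.

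Myog (ENSMUSG00000026459, plus strand of chromosome 1, 134289989 to 134292548), the factor of terminal differentiation, had the highest level per kilobase of them in every population. Myog had 180.2, 241 and 332 normalized counts in GFP-only cells, 214, 529 and 663 in double-positive cells and 1470.1, 7813 and 6639 in RFP-only cells. RFP-only 1 was well below RFP-only 2 and 5 but above all other libraries, and the GFP-only and double-positive ranges overlapped. Its log2 fold change was 4.12 ± 0.60 (adjusted p = 0.000834) for RFP-only versus GFP-only, -3.33 ± 0.60 (adjusted p = 0.0142) for double-positive versus RFP-only and 0.79 ± 0.60 (adjusted p = 0.441) for double-positive versus GFP-only cells (limma). Its double-positive call was lost without double-positive 1, RFP-only 2 or RFP-only 5.

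Myf5, which marks early myoblasts, followed the same pattern. Myf5 had 2.48, 35.5 and 29.8 normalized counts in GFP-only cells, 26.9, 9.36 and 86.7 in double-positive cells and 371, 547 and 1246 in RFP-only cells. No double-positive or GFP-only library came near the lowest RFP-only value, and these 6 libraries overlapped each other. The log2 fold change was 5.33 ± 0.98 (adjusted p = 0.00314) for RFP-only versus GFP-only and -4.43 ± 0.98 (adjusted p = 0.0366) for double-positive versus RFP-only cells (limma), the second lost by edgeR, with no filter and without double-positive 1, double-positive 2, RFP-only 1, RFP-only 2 or RFP-only 5. Myf6, a factor of later fiber differentiation, was under the filter, with 0, 0 and 4.07 normalized counts in GFP-only cells, 0.961, 0 and 0 in double-positive and 12.9, 18.1 and 11.2 in RFP-only cells.

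Myoblast surface and fusion genes were higher in RFP-only cells than in GFP-only cells in 3 of 3 cases. Cdh15 (ENSMUSG00000031962, plus strand of chromosome 8, 122847966 to 122867397) encodes M-cadherin, the adhesion protein of myoblasts and satellite cells. Cdh15 had 38.9, 53.9 and 67.8 normalized counts in GFP-only cells, 89.4, 141 and 231 in double-positive cells and 715, 2532 and 2877 in RFP-only cells. The 3 populations did not overlap at all: GFP-only was lowest, double-positive between and RFP-only highest. The log2 difference was 5.03 ± 0.54 (adjusted p = 0.000125) for RFP-only versus GFP-only and -3.59 ± 0.54 (adjusted p = 0.00489) for double-positive versus RFP-only cells (limma), and both calls held in every alternative run. The step from GFP-only to double-positive cells did not pass (1.44 ± 0.54, adjusted p = 0.128), and passed with litter as a block (limma, adjusted p = 0.0396) and by DESeq2.

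Megf10, a receptor with EGF repeats on proliferating myoblasts and satellite cells, was graded in the same way. Megf10 had 0, 45.3 and 20.4 normalized counts in GFP-only cells, 112, 92.0 and 155 in double-positive cells and 357, 794 and 1088 in RFP-only cells. GFP-only, double-positive and RFP-only libraries formed 3 ranges without overlap. Its log2 fold change was 6.09 ± 1.11 (adjusted p = 0.00311) for RFP-only versus GFP-only cells, 3.57 ± 1.11 (adjusted p = 0.0737) for double-positive versus GFP-only cells (adjusted p = 0.0453 with litter as a block; also called without GFP-only 2) and -2.52 ± 1.11 (adjusted p = 0.352) for double-positive versus RFP-only cells (limma). Mymk encodes myomaker, the membrane protein needed for myoblast fusion. Mymk had 13.2, 36.7 and 21.7 normalized counts in GFP-only cells, 21.1, 123 and 51.6 in double-positive cells and 197, 993 and 526 in RFP-only cells. The double-positive range overlapped that of GFP-only cells, and all RFP-only libraries were higher. Mymk differed by 4.35 ± 0.74 (adjusted p = 0.00193) for RFP-only versus GFP-only and by -3.16 ± 0.74 (adjusted p = 0.0457) for double-positive versus RFP-only cells (limma), the second lost by edgeR, with no filter and without double-positive 1, double-positive 5, RFP-only 2 or RFP-only 5.

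**Figure D3:**
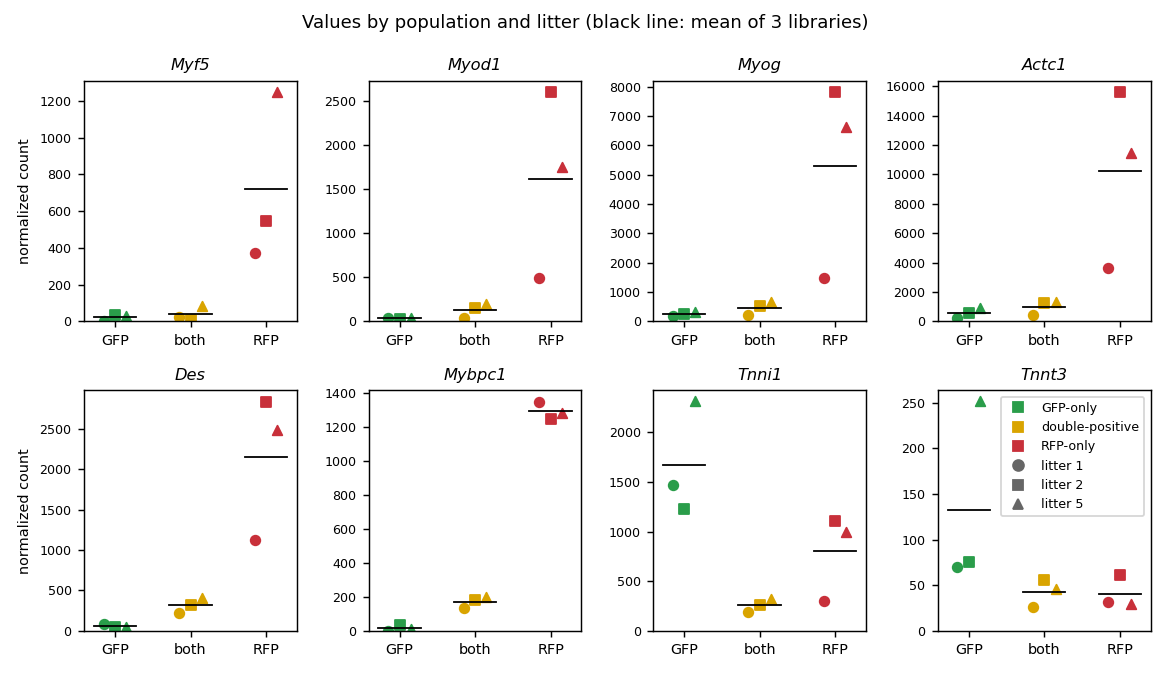
Normalized counts of 8 members on linear axes, with 1 point per library (shape for litter), a black line at the mean of the 3 libraries, and the populations GFP-only (GFP), double-positive (both) and RFP-only (RFP). Des rises in steps from GFP-only through double-positive to RFP-only cells, the RFP-only points of Mybpc1 lie together between 1246 and 1347, and Tnni1 and Tnnt3 are highest in the 3 GFP-only libraries.

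Of the thick filament genes, 4 of 7 tested were higher in RFP-only cells than in GFP-only cells, 1 was higher in double-positive cells than in GFP-only cells and 1 was lower in double-positive cells than in RFP-only cells. Mybpc1 (ENSMUSG00000020061, minus strand of chromosome 10, 88518279 to 88605152), slow myosin-binding protein C, had the largest log2 fold change between RFP-only and GFP-only cells of the tested members (limma). That rank leaned on litter 1, where GFP-only cells were at 0: its log2 ratios by litter were 10.4, 5.05 and 7.13. Other members had larger ratios in litter 2 (Chrnd, 8.25) and in litter 5 (Trim55, 7.76). Mybpc1 had 0, 36.7 and 8.14 normalized counts in GFP-only cells, 135, 179 and 199 in double-positive cells and 1347, 1246 and 1281 in RFP-only cells. The 3 populations formed separate ranges, and the RFP-only values lay between 1246 and 1347. The log2 fold change was 7.52 ± 0.97 (adjusted p = 0.000394) for RFP-only versus GFP-only, 4.60 ± 0.97 (adjusted p = 0.0161) for double-positive versus GFP-only and -2.92 ± 0.97 (adjusted p = 0.166) for double-positive versus RFP-only cells (limma). The double-positive call was lost without double-positive 2 or double-positive 5 and with those 2 populations alone (limma, adjusted p 0.0519 to 0.0637). The difference from RFP-only cells passed without GFP-only 1 or GFP-only 2.

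Myh3, embryonic myosin heavy chain, had the highest level per kilobase of the 3 listed heavy chains. Myh3 had 10.7, 15.9 and 8.14 normalized counts in GFP-only cells, 7.69, 39.0 and 52.3 in double-positive cells and 271, 388 and 406 in RFP-only cells. RFP-only libraries stood well above the rest, and the other populations overlapped. The difference was 4.85 ± 0.68 (adjusted p = 0.000612) for RFP-only versus GFP-only and -3.73 ± 0.68 (adjusted p = 0.0142) for double-positive versus RFP-only cells (limma), the second lost without RFP-only 2 or RFP-only 5.

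Mybph encodes myosin-binding protein H. Mybph had 7.44, 45.3 and 0 normalized counts in GFP-only cells, 34.6, 81.9 and 38.9 in double-positive cells and 124, 156 and 238 in RFP-only cells. RFP-only libraries were the 3 highest, and GFP-only and double-positive cells overlapped. Its difference of 4.52 ± 1.10 (adjusted p = 0.0141) between RFP-only and GFP-only cells was lost without RFP-only 5 (limma, adjusted p = 0.0592) and by edgeR (adjusted p = 0.0531). For double-positive versus GFP-only cells, Mybph passed without GFP-only 2. Myh8, perinatal myosin heavy chain, rested on 1 library. Myh8 had 0.827, 0 and 0 normalized counts in GFP-only cells, 2.88, 1.56 and 14.2 in double-positive cells and 15.2, 13.6 and 149.8 in RFP-only cells. RFP-only 5 held most of the Myh8 counts, and without it the difference (4.75 ± 1.18, adjusted p = 0.0157) did not pass (limma, adjusted p = 0.0964).

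The remaining thick filament genes passed in no comparison. Myl1, Myl4 and Mylpf, which encode myosin light chains, had RFP-only means of 231 ± 129.7, 210.0 ± 89.1 and 382 ± 213 normalized counts against 56.0 ± 45.7, 83.6 ± 39.6 and 209.7 ± 100.1 in GFP-only cells (SD, n = 3). Their log2 fold changes were 2.53 ± 0.93, 1.36 ± 0.52 and 0.80 ± 0.51 (limma, adjusted p 0.0768, 0.0895 and 0.292), and with litter as a block the first and second passed (adjusted p 0.0137 and 0.0331). Myl1 also passed without GFP-only 5. Myh7, slow myosin heavy chain, was at 0, 0 and 0 normalized counts in GFP-only cells, 0, 1.56 and 13.5 in double-positive and 21.3, 3.40 and 1.40 in RFP-only cells. RFP-only 1 and double-positive 5 held most of its counts.

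Thin filament genes split. Of 10 members, 4 were higher in RFP-only cells than in GFP-only cells (Actc1, Tnnt1, Tnnt2 and Neb) and 6 did not pass, and troponin Tnni1 was lower in double-positive cells than in GFP-only cells. Actc1 (ENSMUSG00000068614, minus strand of chromosome 2, 114047282 to 114053548), cardiac alpha-actin, which is also the main sarcomeric actin of embryonic skeletal muscle, supplied more counts than any other member in RFP-only cells and had the highest level per kilobase there. Actc1 had 236, 588 and 893 normalized counts in GFP-only cells, 415, 1253 and 1344 in double-positive cells and 3648, 15582 and 11448 in RFP-only cells. RFP-only libraries lay above all others, with RFP-only 1 lowest of the 3, and the GFP-only and double-positive ranges overlapped. Actc1 differed by 4.12 ± 0.63 (adjusted p = 0.00109) for RFP-only versus GFP-only and by -3.29 ± 0.63 (adjusted p = 0.0194) for double-positive versus RFP-only cells (limma), the second lost without double-positive 1, RFP-only 2 or RFP-only 5. It made up 25.3% to 32.4% of all member counts in RFP-only libraries.

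Tnnt1, slow skeletal troponin T, which ties the troponin complex to tropomyosin, followed Actc1. Tnnt1 had 44.6, 93.0 and 122 normalized counts in GFP-only cells, 79.7, 252 and 156 in double-positive cells and 912, 2039.5 and 1621 in RFP-only cells. RFP-only values did not overlap with any others. Its log2 fold change was 4.16 ± 0.51 (adjusted p = 0.000274) for RFP-only versus GFP-only and -3.29 ± 0.51 (adjusted p = 0.00566) for double-positive versus RFP-only cells (limma), and both passed in every alternative run. Neb encodes nebulin, the giant protein that lines the thin filament. Neb had 19.0, 24.5 and 92.3 normalized counts in GFP-only cells, 24, 64.7 and 19.4 in double-positive cells and 264, 997 and 412 in RFP-only cells. Again the RFP-only libraries were apart and the rest overlapped, with differences of 3.72 ± 0.72 (adjusted p = 0.00415) for RFP-only versus GFP-only and -3.89 ± 0.72 (adjusted p = 0.0154) for double-positive versus RFP-only cells (limma), the second lost without double-positive 1, double-positive 5, RFP-only 2 or RFP-only 5.

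Tnni1 (ENSMUSG00000026418, plus strand of chromosome 1, 135779434 to 135810989), slow skeletal troponin I, ran the other way. Tnni1 had 1465, 1229 and 2315 normalized counts in GFP-only cells, 191, 256 and 320.0 in double-positive cells and 299, 1109.8 and 993 in RFP-only cells. The 3 GFP-only libraries were the highest, the double-positive libraries lay below all of them, and RFP-only values ranged from the double-positive level in litter 1 to just under the GFP-only range. Double-positive cells were lower than GFP-only cells by a log2 fold change of -2.68 ± 0.47 (adjusted p = 0.00647; limma), in every alternative run. RFP-only versus GFP-only cells gave -1.22 ± 0.47 (adjusted p = 0.0887), which passed with litter as a block (limma, adjusted p = 0.0491). Double-positive against RFP-only cells gave -1.46 ± 0.47 (adjusted p = 0.147; limma), which passed without RFP-only 1 and by DESeq2.

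The fast troponins Tnnt3 and Tnni2 also had their highest values outside RFP-only cells. Tnnt3, fast troponin T, had negative differences in both comparisons with GFP-only cells. Tnnt3 had 70.3, 75.9 and 252 normalized counts in GFP-only cells, 25.9, 55.4 and 45.6 in double-positive cells and 31.2, 61.2 and 29.4 in RFP-only cells. GFP-only 5 was far above the rest, and GFP-only libraries lay above those of both other populations, but neither difference passed (-1.50 ± 0.61, adjusted p = 0.105 for RFP-only and -1.43 ± 0.61, adjusted p = 0.173 for double-positive cells; limma), and the first passed by DESeq2. Tnni2 encodes fast troponin I. Tnni2 had 86.8, 107 and 292 normalized counts in GFP-only cells, 234, 266 and 158 in double-positive cells and 54.8, 135 and 79.8 in RFP-only cells. Its double-positive values lay above the RFP-only values and overlapped with GFP-only cells, and no comparison passed: RFP-only versus GFP-only gave -0.72 ± 0.52 (adjusted p = 0.347) and double-positive versus RFP-only 1.34 ± 0.52 (adjusted p = 0.257; limma).

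Acta1, the skeletal alpha-actin that replaces Actc1 as muscle matures, did not separate RFP-only from GFP-only cells. Acta1 had 206, 141 and 422 normalized counts in GFP-only cells, 27.9, 156 and 228 in double-positive cells and 254, 548 and 454 in RFP-only cells. The 2 ranges overlapped and the difference was 0.79 ± 0.70 (adjusted p = 0.456; limma). Acta1 and Actc1 have closely related coding sequences and may share reads, and the same holds for Myh3 and Myh8. Tnnt2, cardiac troponin T of early muscle, passed for RFP-only versus GFP-only cells (3.91 ± 1.20, adjusted p = 0.0403), from 56.1 ± 51.8 to 522 ± 323 normalized counts (SD, n = 3). Its call was lost without GFP-only 1, double-positive 2, double-positive 5, RFP-only 2 or RFP-only 5, and the log2 fold change without GFP-only 1 was 2.40 (adjusted p 0.0532 to 0.129 over these limma fits and 3 other alternatives, edgeR among them). Tnnc1 and Tnnc2, the slow and fast troponin C, had log2 fold changes of 1.87 ± 0.82 (adjusted p = 0.132) and 3.16 ± 1.26 (adjusted p = 0.1) in the same comparison (limma), and Tnnc2 passed with litter as a block (adjusted p = 0.0344). Both passed without GFP-only 5. For double-positive versus RFP-only cells the Tnnt2 difference of -3.58 ± 1.20 (adjusted p = 0.17; limma) passed with litter as a block (adjusted p = 0.0129) and without GFP-only 1.

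Both scaffold genes were higher in RFP-only cells than in GFP-only cells. Des (ENSMUSG00000026208, plus strand of chromosome 1, 75360329 to 75368579), the desmin of muscle intermediate filaments, had the smallest adjusted p of all members and was the only one called in all 3 comparisons. Des had 79.4, 53.9 and 51.6 normalized counts in GFP-only cells, 218, 319.6 and 405 in double-positive cells and 1123, 2837 and 2481 in RFP-only cells. The populations were fully apart, GFP-only lowest, double-positive between and RFP-only highest. Des rose by 2.31 ± 0.40 (adjusted p = 0.00632) from GFP-only to double-positive cells and by 5.02 ± 0.40 (adjusted p = 1.59e-05) from GFP-only to RFP-only cells, and was lower in double-positive cells than in RFP-only cells (-2.71 ± 0.40, adjusted p = 0.00432; limma). All 3 calls held in every alternative run. The stretch printed above for Des is its upstream sequence with 1 CAGCTG. Ttn encodes titin, the spring of the sarcomere. Ttn had 3.31, 4.90 and 104 normalized counts in GFP-only cells, 23.1, 221 and 199.6 in double-positive cells and 443, 917 and 2052 in RFP-only cells. RFP-only libraries were higher than all others, while GFP-only 5 stood far above GFP-only 1 and 2 and above double-positive 1. Ttn differed by 6.08 ± 1.19 (adjusted p = 0.00459) for RFP-only versus GFP-only cells, and by 2.88 ± 1.19 (adjusted p = 0.162) for double-positive versus GFP-only cells, which passed with litter as a block (limma, adjusted p = 0.0433) and without GFP-only 5.

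Of the 4 subunits of the muscle acetylcholine receptor, 3 were higher in RFP-only cells than in GFP-only cells. Chrnb1, the beta subunit, was the one that was also higher in double-positive cells than in GFP-only cells. Chrnb1 had 44.6, 28.2 and 88.2 normalized counts in GFP-only cells, 271, 295 and 159 in double-positive cells and 323, 804 and 976 in RFP-only cells. The 3 ranges did not overlap, with double-positive cells between the others. The log2 fold change was 3.69 ± 0.52 (adjusted p = 0.000675) for RFP-only versus GFP-only and 2.25 ± 0.52 (adjusted p = 0.0239) for double-positive versus GFP-only cells (limma). The double-positive call was lost without GFP-only 2, double-positive 1 or double-positive 2 and with those 2 populations alone (limma, adjusted p 0.0556 to 0.1).

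Chrnd, the delta subunit, was nearly absent from GFP-only cells outside litter 5. Chrnd had 0, 0 and 24.4 normalized counts in GFP-only cells, 4.80, 19.5 and 26.9 in double-positive cells and 63.2, 303 and 393 in RFP-only cells. RFP-only libraries were all higher, and the difference from GFP-only cells was 6.07 ± 1.26 (adjusted p = 0.00628; limma). Without GFP-only 5, double-positive cells also passed against both others. Chrng, the gamma subunit of the fetal receptor, was lowest in double-positive cells. Chrng had 25.6, 15.9 and 85.5 normalized counts in GFP-only cells, 0, 3.90 and 38.1 in double-positive cells and 123, 508 and 386 in RFP-only cells. RFP-only values were above all others, and the GFP-only and double-positive ranges overlapped. Double-positive cells differed from RFP-only cells by -5.65 ± 1.17 (adjusted p = 0.0274; limma), a call lost by edgeR and without double-positive 1, double-positive 2, RFP-only 2 or RFP-only 5. RFP-only versus GFP-only cells did not pass (3.10 ± 1.17, adjusted p = 0.0849; limma), but passed with litter as a block (adjusted p = 0.0336), without double-positive 1 or double-positive 5 and by DESeq2. Double-positive against GFP-only cells gave -2.56 ± 1.17 (adjusted p = 0.203; limma) and passed without double-positive 5.

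Chrna1, the alpha subunit, which binds acetylcholine, overlapped between GFP-only and RFP-only cells. Chrna1 had 44.6, 75.9 and 273 normalized counts in GFP-only cells, 31.7, 107 and 132 in double-positive cells and 254, 1283 and 1050.0 in RFP-only cells. GFP-only 5 lay above RFP-only 1, although within each litter RFP-only was higher. The difference was 2.83 ± 0.80 (adjusted p = 0.0281; limma), and it was lost without GFP-only 1, GFP-only 2, RFP-only 2 or RFP-only 5 (adjusted p 0.0655 to 0.107). The difference between double-positive and RFP-only cells was -3.17 ± 0.80 (adjusted p = 0.061), which passed with litter as a block (limma, adjusted p = 0.00613), by DESeq2 and without GFP-only 5 or RFP-only 1.

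The muscle ubiquitin ligases and a Kelch protein differed among themselves. Trim55, a ligase of the sarcomere M band, was close to absent outside RFP-only cells. Trim55 had 9.92, 0 and 0 normalized counts in GFP-only cells, 0, 1.56 and 7.48 in double-positive cells and 56.4, 205 and 216 in RFP-only cells. The 6 other libraries held at most 9.92 normalized counts. Trim55 differed by 5.95 ± 1.19 (adjusted p = 0.00525) for RFP-only versus GFP-only and by -5.62 ± 1.19 (adjusted p = 0.0314) for double-positive versus RFP-only cells, and the second did not pass with litter as a block (adjusted p = 0.057; limma), by edgeR, with a filter at a mean of 50 nor without double-positive 1, double-positive 2, RFP-only 1, RFP-only 2 or RFP-only 5.

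Klhl41, a Kelch protein that protects nebulin and the thin filament, rose in RFP-only cells by 2.90 ± 0.73 (adjusted p = 0.017; limma). Klhl41 had 9.92, 40.4 and 27.1 normalized counts in GFP-only cells, 20.2, 39.0 and 53.8 in double-positive cells and 64.7, 347 and 232 in RFP-only cells. RFP-only values lay above the rest, and without RFP-only 2 or RFP-only 5 the difference did not pass (adjusted p 0.0733 to 0.0776; limma). Its difference between double-positive and RFP-only cells was -2.28 ± 0.73 (adjusted p = 0.15; limma), and it passed with litter as a block (adjusted p = 0.0412) and by DESeq2. Trim63, known as MuRF1, a ligase of muscle atrophy, did not follow its relative Trim55. Trim63 had 5.79, 49.0 and 167 normalized counts in GFP-only cells, 14.4, 7.80 and 61.3 in double-positive cells and 54.1, 95.1 and 65.8 in RFP-only cells. GFP-only 5 was the highest library, all populations overlapped and no comparison passed (0.88 ± 1.07, adjusted p = 0.591 for RFP-only and -0.92 ± 1.07, adjusted p = 0.627 for double-positive versus GFP-only cells; limma).

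Energy and calcium genes were low, and 0 of the 2 tested passed in any comparison (limma). Casq2, the cardiac and slow calcium buffer of the sarcoplasmic reticulum, had 0, 15.9 and 8.14 normalized counts in GFP-only cells, 10.6, 0 and 0 in double-positive and 39.6, 129 and 91.0 in RFP-only cells, with no overlap between RFP-only and the others (3.87 ± 1.28, adjusted p = 0.0546 against GFP-only cells; limma). That difference passed without GFP-only 2 or double-positive 1, and the one between double-positive and RFP-only cells (-5.12 ± 1.28, adjusted p = 0.061; limma) passed without GFP-only 1 or double-positive 1 and by DESeq2. Ryr1, the calcium release channel, had 87.2 ± 32.0, 113 ± 36.5 and 178 ± 75.4 (SD, n = 3) and a difference of 0.99 ± 0.46 (adjusted p = 0.153) between RFP-only and GFP-only cells (limma). Cacna1s, the voltage sensor that opens Ryr1, was at 0 in the 6 GFP-only and double-positive libraries and at 15.2, 15.9 and 7.0 normalized counts in RFP-only cells, at least 11.2-fold higher than a floor of 3 reads over the GFP-only group and 15.3-fold higher than that over the double-positive group. Ckm, muscle creatine kinase of mature fibers, had 0, 0 and 0 normalized counts in GFP-only cells, 1.92, 0 and 9.72 in double-positive cells and 2.29, 15.9 and 0 in RFP-only cells. The floor covers counting error only.

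Read as ranges alone, 29 tested members had all RFP-only values above all GFP-only values and 2 had them below, where 20.9% and 18.5% of all genes tested did so. The double-positive and GFP-only groups were apart for 6 members upward and 2 downward, against 14.3% and 13.8% of all genes. Between double-positive and RFP-only cells 1 member was apart upward (Tnni2) and 28 downward, against 11.2% and 12.6%. The members called lower in double-positive cells than in RFP-only cells were Lbx1, Myf5, Myod1, Myog, Cdh15, Mymk, Myh3, Actc1, Tnnt1, Neb, Des, Chrng and Trim55. Their number was 3 without RFP-only 2, 3 without RFP-only 5 and 5 without double-positive 1, and DESeq2 on the recovered reads called 21. Des, Cdh15 and Tnnt1 passed in every alternative run. The 3 contrasts share libraries, so their counts are not independent of each other.

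Levels per kilobase of exon allow genes to be set against each other, and Actc1 led in double-positive and RFP-only cells and Tnni1 in GFP-only cells. The length used was the union of all annotated exons, which is at least as long as any 1 transcript, so these levels are approximate. In RFP-only cells Actc1 led with 6320.1 ± 3746 normalized counts per kilobase, then Myog with 3549.9 ± 2257, Myod1 with 865 ± 567, Tnnt1 with 692 ± 259, Cdh15 with 628 ± 357 and Des with 572 ± 241 (SD, n = 3). Neighbours in this order differed by less than the SD of the higher gene, except Myog and Myod1. Here and below, that SD is a spread between libraries that the genes share, so it does not test their order. In double-positive cells the order began with Actc1 (620.4 ± 316), Myog (314 ± 154), Mylpf (198 ± 46.6) and Tnni2 (147 ± 37.1), where the step from Mylpf to Tnni2 alone was larger than the SD of the higher gene. In GFP-only cells it began with Tnni1 (464 ± 159), Actc1 (354 ± 203), Mylpf (197 ± 94.3) and Myog (168 ± 51.2), neighbours within the SD of the higher gene. Myog, a transcription factor, stood among the leading 4 members in all 3 populations.

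**Figure D4:**
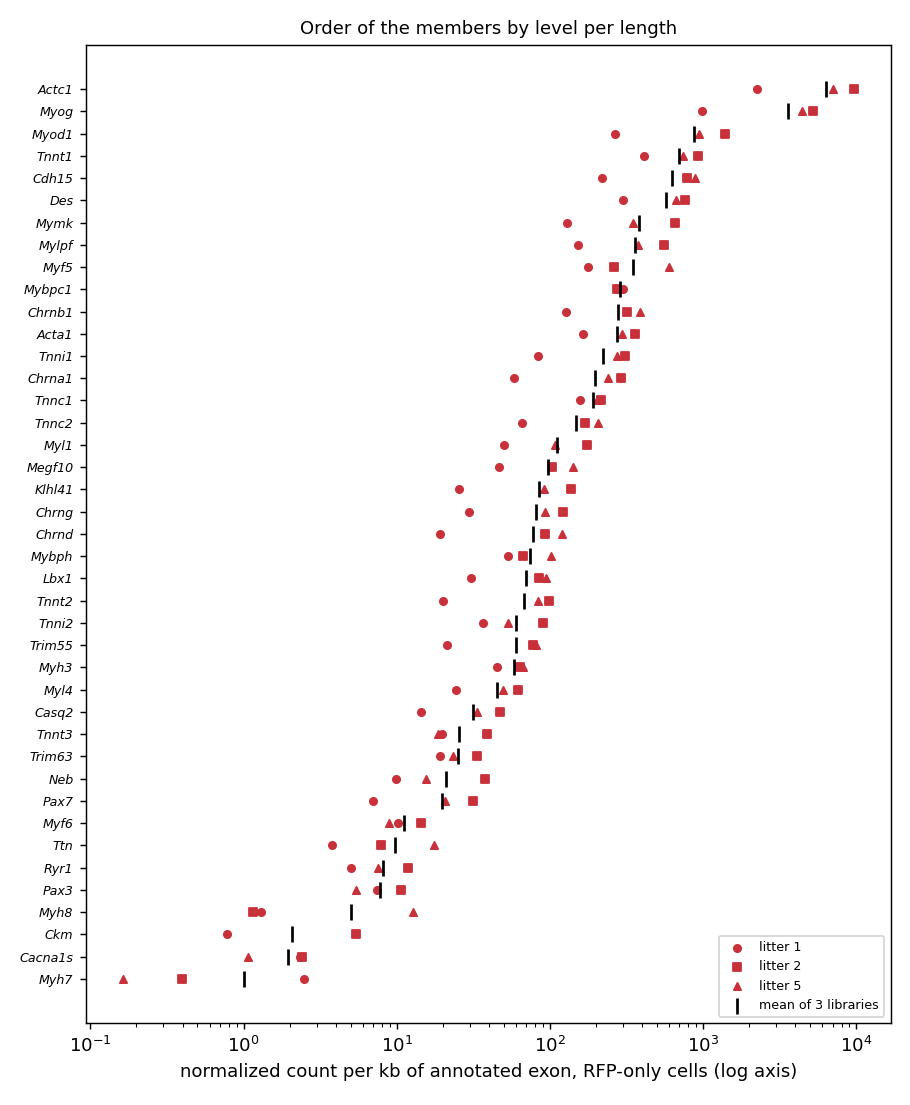
Normalized counts per kilobase of annotated exon in the 3 RFP-only libraries, on a log axis, with the members ordered by their mean (black line) and the shapes giving the litter; Ckm in litter 5 was at 0 and is not drawn. Actc1 and Myog stand highest, and the litter 1 point lies left of the others in most rows.

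The litters differed in their muscle RNA. Within RFP-only cells litter 1 had the lowest value for 33 of 37 tested members, where it was lowest for 28.9% of all genes tested. It was lowest for 26 of 37 members in double-positive cells (30.4% of all genes) and for 23 of 37 in GFP-only cells (30.3%). Over the 24 members called higher in RFP-only cells than in GFP-only cells, the median log2 difference within RFP-only cells was 1.64 for litter 2 over litter 1 and 1.63 for litter 5 over litter 1, with 22 of 24 genes higher each time, and over all genes tested these medians were 0.01 and 0.0045. Mybpc1 was an exception: its RFP-only values were 1347, 1246 and 1281 normalized counts. In GFP-only cells it was litter 5 that stood highest, for 25 of 37 members against 42.2% of all genes, with Chrna1, Trim63, Ttn and Tnnt3 among the clearest. With 1 library per litter and population, litter and library cannot be told apart here.

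Muscle genes outside the set were read from 5 lists of 103 genes, of which 83 could be tested. These lists too were chosen with earlier results of these data known. For RFP-only versus GFP-only cells 35 were higher, 6 lower and 42 did not pass, with a median log2 fold change of 1.42 against 0.05 for all genes tested. In that comparison 11.8% of all genes tested were higher and 8.48% lower. Most higher calls were among sarcomere and Z-disc genes (15 of 29 tested, 1 lower) and myoblast regulators (10 of 22, 1 lower). Calcium release and membrane genes gave 6 higher and 2 lower of 19, neuromuscular junction genes 4 higher and 0 lower of 7, and energy genes 0 higher and 2 lower of 6. Between double-positive and GFP-only cells 11 were higher and 5 lower, where 5.27% and 3.02% of all genes tested were. Between double-positive and RFP-only cells 0 were higher and 6 lower, where 1.8% and 1.05% of all genes tested were.

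Among the myoblast regulators, Mef2c, a MADS-box partner of the myogenic factors that also acts in hypertrophic cartilage, was lower in RFP-only cells than in GFP-only cells. Mef2c had 10713, 11154 and 14313 normalized counts in GFP-only cells, 1278, 2149 and 3264 in double-positive cells and 1101, 1782 and 1782 in RFP-only cells. GFP-only libraries were far above all others, and the difference was -2.98 ± 0.33 (adjusted p = 0.000142) for RFP-only versus GFP-only cells (limma).

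Of the Z-disc genes, Pdlim3, a PDZ and LIM protein, was lowest in GFP-only cells and overlapped between the other populations. Pdlim3 had 117, 174 and 155 normalized counts in GFP-only cells, 1766, 1410.3 and 1175 in double-positive cells and 1007, 1399 and 1295 in RFP-only cells. It was higher in RFP-only cells than in GFP-only cells by 3.05 ± 0.27 (adjusted p = 3.06e-05) and in double-positive cells by 3.28 ± 0.27 (adjusted p = 0.000127; limma). Myot, myotilin, was low throughout. Myot had 0.827, 0 and 0 normalized counts in GFP-only cells, 13.5, 42.1 and 9.72 in double-positive cells and 21.3, 27.2 and 84.0 in RFP-only cells. GFP-only cells held 1 read in all, and the difference was 4.95 ± 0.90 (adjusted p = 0.00305) for RFP-only versus GFP-only cells (limma).

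Casq1, the fast-muscle calcium buffer, was graded by its ranges. Casq1 had 39.7, 49.0 and 20.4 normalized counts in GFP-only cells, 129, 282 and 117 in double-positive cells and 433, 308 and 337 in RFP-only cells. The 3 ranges did not overlap, with 3.34 ± 0.47 (adjusted p = 0.000613) for RFP-only and 2.21 ± 0.47 (adjusted p = 0.0158) for double-positive versus GFP-only cells (limma).

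Colq, the collagen tail that anchors acetylcholinesterase at the synapse, was higher in RFP-only cells and graded over the sort. Colq had 0, 3.67 and 1.36 normalized counts in GFP-only cells, 8.65, 34.3 and 12.0 in double-positive cells and 136, 164 and 106 in RFP-only cells. Populations did not overlap, and RFP-only exceeded GFP-only cells by 5.92 ± 0.80 (adjusted p = 0.000495; limma). Ache, the enzyme itself, had the same order of ranges, also without overlap. Ache had 6.61, 7.35 and 20.4 normalized counts in GFP-only cells, 32.7, 35.9 and 49.3 in double-positive cells and 73.9, 129 and 149.8 in RFP-only cells. RFP-only exceeded GFP-only cells by 3.36 ± 0.59 (adjusted p = 0.00238; limma).

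Both energy genes that passed were lower in RFP-only cells. Fabp3, a fatty-acid carrier of heart and oxidative muscle, was far higher in GFP-only cells. Fabp3 had 1430.1, 1154 and 2655 normalized counts in GFP-only cells, 72.1, 101 and 188 in double-positive cells and 207, 117 and 84.0 in RFP-only cells. The RFP-only difference was -3.68 ± 0.47 (adjusted p = 0.000371; limma). Eno3, muscle enolase, was highest in GFP-only and lowest in RFP-only cells. Eno3 had 2496, 3309 and 3785 normalized counts in GFP-only cells, 1905, 1558 and 1885 in double-positive cells and 609, 1174 and 847 in RFP-only cells. The RFP-only difference was -1.89 ± 0.27 (adjusted p = 0.000707; limma). Myl3, Hrc and Mustn1 were the other genes called lower in RFP-only cells than in GFP-only cells, with log2 fold changes of -1.95, -3.39 and -3.28. The 20 untested genes include Myh1, Myh4 and Myl2 (myosins of mature fibers), Mb (myoglobin), Ckmt2 and the adult receptor subunit Chrne. These belong to the mature fiber program but were not all absent. RFP-only libraries held 38.8, 0 and 18.2 normalized counts of Myh1 and 55.6, 14.7 and 12.6 of Myh4. For Mb they held 19.8, 19.3 and 9.80, and for Myl2, Ckmt2 and Chrne at most 6.86. Myh2, a further myosin of these lists, was tested and passed as higher in RFP-only cells than in GFP-only cells (4.83 ± 1.23, adjusted p = 0.0179; limma).

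Markers of other cell types moved over the same sort. Summed over each list, 12 smooth muscle and pericyte markers had 15498 to 18555 normalized counts in GFP-only, 11011 to 20819 in double-positive and 15163 to 20595 in RFP-only libraries. Of these 12 genes 10 were called higher and 1, Cspg4, lower in RFP-only cells than in GFP-only cells. Cspg4, the NG2 proteoglycan, which had the highest level of the list, had 12104, 15047 and 13273 in GFP-only and 782, 1494 and 1129.8 in RFP-only cells. The other 11 markers, summed after their values were seen, had 2225 to 3508 in GFP-only, 6465 to 9700.0 in double-positive and 14381 to 19465 in RFP-only libraries, so that their sum was higher in RFP-only cells than in GFP-only cells without overlap. Acta2, smooth muscle actin, which early muscle also expresses, had 4264, 7532 and 6896 in RFP-only and 259.6, 275 and 665 in GFP-only cells. Myh11, smooth muscle myosin, had a mean under 10 in GFP-only and double-positive cells and 28.9, 88.3 and 96.6 in RFP-only cells. The 9 cartilage markers fell from 1290103 to 1800706 in GFP-only to 237822 to 698134 in double-positive and 3608 to 10178 in RFP-only libraries, with all 9 called lower in RFP-only cells than in GFP-only cells. The 8 loose connective tissue markers had 9603 to 13955, 36342 to 57871 and 83551 to 118510.2, and all 8 were called higher in RFP-only cells.

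Of the remaining lists, 10 endothelial markers had 1098 to 2243, 1396 to 5503 and 5009.9 to 6307 normalized counts in GFP-only, double-positive and RFP-only libraries, 5 of them higher and 0 lower in RFP-only cells than in GFP-only cells. The 10 blood and immune markers had 174 to 524, 2349 to 15299 and 1217 to 3664 (5 higher, 0 lower), with Fcgr1 under a mean of 10 in GFP-only cells. The 6 tendon markers had 5497 to 11755, 18744 to 28987 and 21338 to 26852 (5 higher, 0 lower). The 8 Schwann and neuron markers had 1444 to 3964, 2919.8 to 5220.3 and 5452 to 6166 (4 higher, 2 lower), with Foxd3 under a mean of 10 outside RFP-only cells. The 6 erythroid markers had 3573 to 25098, 5865 to 52695 and 24927 to 81356 (0 higher, 0 lower), and the 6 epidermal markers 839.8 to 1989, 1285 to 1543 and 692 to 1049.7 (1 higher, 1 lower). Over all genes tested, 11.8% were higher and 8.48% lower in RFP-only cells than in GFP-only cells. Against GFP-only cells, double-positive cells had 8 blood and immune, 7 loose connective tissue, 5 smooth muscle and pericyte and 5 tendon markers higher. Endothelial markers gave 2 higher, Schwann and neuron markers 2 higher and 1 lower, cartilage markers 7 lower, and erythroid and epidermal markers 0 calls. All genes gave 5.27% higher and 3.02% lower there. The part of these cell types in the muscle gene differences was not tested.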

How the data were processed

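Libraries were made from polyadenylated RNA of sorted knee cells with a Nextera XT kit (labels' protocols). FastQC, STAR, Salmon, DESeq2 and mm10 appear in the submitters' processing notes; their roles, the gene models and the strand setting are not given in the sources used here. Exons of 11 of the 41 members overlap a gene on the opposite strand, so reads of both cannot be told apart. The values are a signal on the authors' own scale, deposited as normalized counts. In every library 100% of values were whole multiples of 1 read's value (to within 0.001 of a read), which gave back reads for edgeR 4.0.16 and DESeq2 1.42.0 as alternatives. Of the deposited identifiers 54495 matched GENCODE M21 and 37 did not, and 23956 genes had no read.

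The tests were limma-trend fits (limma 3.58.1, R 4.3.3) of log2(normalized count + 1), two-sided, without a litter term, with 1 spread for all 9 libraries and Benjamini-Hochberg adjustment over the 17764 genes of a comparison (mean of at least 10, adjusted p under 0.05). The added 1 pulls fold changes of low genes toward 0, but a library at 0 can also enlarge a difference of mean logs. For RFP-only versus GFP-only cells the members' median log2 fold change was 3.87 in this fit. It was 3.52 with a pseudocount of 5, 3.57 by edgeR and 3.54 by DESeq2. The fit was also run on simulated counts with the same setting of spread for every gene and no litter effect. That run does not speak for members that vary more between libraries. The labels number the litters, so numbers pair libraries: deviations from population means correlated with a median of 0.103 within litters (9 pairs, -0.0353 to 0.149) and -0.0409 between litters (18 pairs, -0.146 to 0.0915). Replicates were not repeat counts of 1 library (chi-square over its degrees of freedom 46.6 or more). Members and lists were chosen with earlier results of these data known. Given in full were, by role, up to 4 members with the smallest adjusted p that passed, had 1 sign in all litters and a group mean of at least 50, and those against their role; from each other muscle list, the 2 with the smallest adjusted p (some are not reported here). Alternatives changed the pseudocount, filter, scaling, samples, litter block or tool.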

Additional observations from a re-analysis of the deposited data

How the results depend on the processing

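Of the 41 calls of members in the 3 comparisons, 22 held in all 18 alternatives and 0 changed sign; of 1986 values under alternatives, 1801 kept direction and side of the threshold, 86 lost a call, 61 gained one and 38 changed sign. Members called for double-positive versus GFP-only cells numbered 4, and 7 with the replicate block, which pairs libraries by litter, 2 with 2 populations only, 7 by DESeq2 and 2 to 6 with 1 library left out (2 without double-positive 2). Over all genes the count of 1472 was 697 with 2 populations only, 2780.0 by DESeq2 and 637 to 1553 with 1 library left out, lowest without double-positive 2. For RFP-only versus GFP-only cells, members called ranged from 17 to 27 and all genes called (3601) from 2190.0 to 3716 with 1 library left out, the latter lowest without RFP-only 5. For double-positive versus RFP-only cells the 13 members became 21 by DESeq2 and 3 to 17 with 1 library left out, lowest without RFP-only 2 or 5. The 506 genes became 1008 with 2 populations only, 1152 by DESeq2 and 217 to 1050.0 with 1 library left out. That last range was lowest without double-positive 1 and highest without GFP-only 5. The block gained Megf10, Cdh15 and Ttn for double-positive versus GFP-only cells, Tnnc2, Chrng, Tnni1, Myl4 and Myl1 for RFP-only versus GFP-only cells, and Tnnt2, Chrna1 and Klhl41 for double-positive versus RFP-only cells, where it lost Trim55; it changed no other call. Signs changed only for uncalled differences. For double-positive versus GFP-only cells these were Tnnt2 (-0.13 by quantile normalization, -0.19 by edgeR, -0.28 by DESeq2), Trim55 (-0.50, -0.22 and -0.20), Mylpf (-0.16 by quantile normalization, -0.0052 by DESeq2), Myl4 (-0.075 by quantile normalization) and Myl1 (-0.0099 by DESeq2). Leaving out 1 library gave Myf5 -0.19 to 1.65, Lbx1 -0.97 to 0.47, Tnnc2 -0.60 to 2.22, Tnnt2 -1.18 to 1.29, Neb -0.68 to 0.51, Chrna1 -0.90 to 0.39, Trim63 -2.17 to 0.15, Mylpf -0.31 to 0.44, Trim55 -0.47 to 1.48, Myl4 -0.24 to 0.52, Myl1 -0.68 to 1.23, Tnnc1 -0.49 to 1.16. For RFP-only versus GFP-only cells Trim63 was -0.056 by DESeq2 and -0.37 to 1.94 with 1 library left out, and for double-positive versus RFP-only cells Tnnt3 was -0.15 to 0.40. The causes of these changes were not tested. Myf6, Myh7, Ckm and Cacna1s were tested only without the filter, and with 3 libraries a population a difference that did not pass is not shown to be absent.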
